A study of Mus musculus with 4 samples.

Results

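Nova1 and Nova2 encode the NOVA proteins, a pair of RNA-binding proteins of neurons, and were followed here in sorted cells of the embryonic mouse cortex. They are 2 of the 23240 rows of the gene count table, selected on their measured change between neurons and neural progenitor cells (NPCs), which went in opposite directions. Both were among the 15292 genes left after genes with low counts were removed. The embryos came from heterozygous Nestin-GFP mice crossed with homozygous DCX-mRFP mice, so that both groups carried both reporters, one driven by Nestin sequences in progenitors and the other by doublecortin sequences in young neurons. Neurons were cells sorted for both colours at embryonic day 15.5, and NPCs were cells of the same age sorted for green alone, with 2 RNA-seq libraries of total RNA in each group. The labels call the libraries of a group duplicates and do not state whether they came from separate litters, so that the p-values rest on a spread within duplicates that may be technical.

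NOVA proteins bind clusters of a short RNA motif, YCAY (Y is C or U), through KH domains, which are protein folds that hold single-stranded RNA. They act on splicing by position, since binding within or just upstream of an alternative exon tends to lead to skipping and binding downstream of it to inclusion. Many of the exons they control lie in transcripts of synapses and axon guidance, and both proteins were first found as the targets of antibodies in patients with a paraneoplastic movement disorder. In the adult mouse brain Nova2 is the main paralog of the neocortex, and Nova1 is best known from the hindbrain and spinal cord.

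The paralogs are alike in protein but can be told apart in RNA, which bears on every value below. The 150 bases of coding sequence in which they are most alike are shown, 5′ to 3′ on the coding strand, from the longest protein-coding GENCODE transcripts (M21, build GRCm38), with the bases that differ in capitals. The Nova1 stretch runs from coding base 507 to 656 and the Nova2 stretch from coding base 576 to 725.
Nova1: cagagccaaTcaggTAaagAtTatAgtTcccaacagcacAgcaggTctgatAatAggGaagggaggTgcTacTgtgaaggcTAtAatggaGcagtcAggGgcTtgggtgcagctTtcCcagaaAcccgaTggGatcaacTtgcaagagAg
Nova2: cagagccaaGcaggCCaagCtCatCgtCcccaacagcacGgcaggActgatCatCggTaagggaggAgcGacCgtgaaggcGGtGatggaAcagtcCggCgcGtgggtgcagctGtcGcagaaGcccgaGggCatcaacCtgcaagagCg

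Even in this stretch 29 of 150 bases differed. Over the whole aligned coding sequence, 1003 of 1441 bases (69.6%) were identical, and the longest run shared by the full transcripts was 16 bases. Every deposited value below 10000 was a whole number of bases (within 0.01 base) when multiplied by 101, which was taken as the read length. Of windows of that length, 0 were shared by the paralogs. Without gaps, a 101-base window of one differed from a window of the other at 18 or more positions. For Nova2, 29.7% of the 101-base windows of the transcript also matched transcripts of the gene Gm26821 when both strands were searched. The sources used here do not say whether the counting used strand, and the search did not record the strand of Gm26821. Reads in the shared windows could thus come from either gene. For Nova1, 0 of 7054 such windows lay in another gene's transcript.

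The direction of the change chose both genes, so their values are a description and carry no test. They are given in CPM, the counts scaled to the library total after adjustment of the libraries with TMM factors. Nova2 was at 84.1 and 104.0 CPM in the neuron libraries, against 45.2 and 49.1 CPM in the NPC libraries. The groups did not overlap, and the lower neuron library stood 1.71-fold above the higher NPC library. Nova2 averaged 94.1 ± 14.2 CPM in neurons and 47.2 ± 2.76 CPM in NPCs (SD, n = 2 each), a fitted log2 change of 1.00 ± 0.08 (standard error). Without neuron replicate 1 the change was 1.15, and without neuron replicate 2 it was 0.84.

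Nova1 was at 13.0 and 10.8 CPM in the neuron libraries, against 20.5 and 22.5 CPM in the NPC libraries. The groups again did not overlap, and the lower NPC library stood 1.58-fold above the higher neuron library. Nova1 averaged 11.9 ± 1.52 CPM in neurons and 21.5 ± 1.45 CPM in NPCs (SD, n = 2 each), so that the neuron level was 55.3% of the NPC level, a log2 change of -0.86 ± 0.10. Of all genes tested, 41.9% had both neuron libraries above both NPC libraries and 44.0% had both below, and 72.6% of all genes were called in either direction by edgeR's quasi-likelihood test, so nothing can be read from the absence of overlap. In sorted bulk samples, fewer cells that express a gene and less of its RNA in each cell cannot be told apart.

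**Figure D1:**
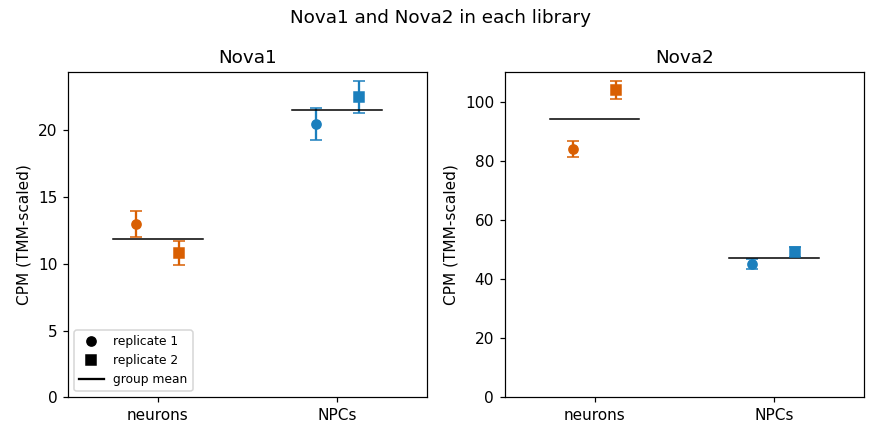
CPM of Nova1 (left) and Nova2 (right) in each library, with neurons in orange and NPCs in blue; error bars are 95% Poisson intervals of the counts, and lines are group means. Both neuron libraries lie below both NPC libraries for Nova1 (10.8 and 13.0 against 20.5 and 22.5 CPM) and above them for Nova2 (84.1 and 104.0 against 45.2 and 49.1 CPM).

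Since both genes were counted in the same library, their ratio needs no scaling between libraries. There were 6.49 and 9.63 Nova2 counts for each Nova1 count in the neuron libraries, with 95% exact binomial intervals of 5.96 to 7.06 and 8.83 to 10.5. The NPC libraries had 2.21 and 2.18, with intervals of 2.06 to 2.37 and 2.05 to 2.33. The ratios of the NPC libraries thus agreed within counting error, and those of the neuron libraries did not. The mean ratio was 8.06 ± 2.22 in neurons and 2.20 ± 0.02 in NPCs (SD, n = 2 each). These intervals cover counting error only, and reads of 1 fragment are not independent of each other.

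**Figure D2:**
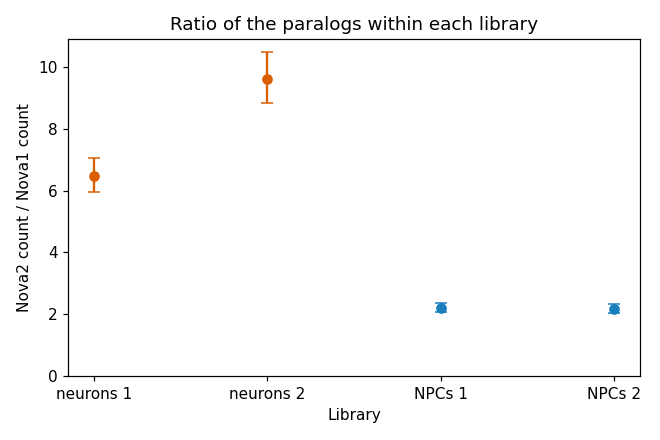
Nova2 counts divided by Nova1 counts in each library, with 95% exact binomial intervals as error bars (counting error only); neurons are orange and NPCs are blue. The neuron libraries stand apart from each other at 6.49 and 9.63, and the NPC libraries lie together at 2.21 and 2.18.

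The levels of the paralogs were set side by side per length. Nova2 was the more abundant paralog in every library on this scale. The unit is CPM per kilobase, a level. Per kilobase of the longest transcript (8372 bases for Nova2 and 7154 for Nova1), Nova2 was at 10 and 12.4 CPM per kilobase in neurons and at 5.40 and 5.87 in NPCs. Nova1 was at 1.81 and 1.51 CPM per kilobase in neurons and at 2.86 and 3.15 in NPCs. From highest to lowest the order was Nova2 in neurons, Nova2 in NPCs, Nova1 in NPCs and Nova1 in neurons, and the libraries of neighbours in this order did not overlap. Nova2 stood 5.52-fold and 8.21-fold above Nova1 in the neuron libraries and 1.89-fold and 1.86-fold above it in the NPC libraries. With coding length in place of transcript length, these ratios were 5.92 and 8.78 in neurons and 2.01 and 1.99 in NPCs. The union of all annotated exons was 8747 bases for Nova1, and for Nova2 it was as long as the longest transcript. Per kilobase of this union, Nova1 was at 1.48 and 1.24 CPM in neurons and 2.34 and 2.57 in NPCs. Nova2 thus stood further above Nova1 on that scale than per longest transcript. The sources used here do not give the gene models used for counting, so the lengths are those of GENCODE M21, and the reads that Nova2 could owe to Gm26821 could not be taken out.

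Among all genes tested, the log2 change of Nova2 exceeded that of 88.3% of genes, and that of Nova1 exceeded that of 20.9%. Neither change was thus at the edge of what these cells showed.

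The spread between duplicates was not used to choose the genes. Nova2 differed 1.24-fold between the neuron libraries, more than 98.7% of the 4453 genes within 2-fold of its mean level, whose median was 1.05-fold. Nova1 differed 1.20-fold between the same libraries, more than 89.8% of the 3834 genes of like level. The paralogs moved apart here too, with neuron replicate 2 higher for Nova2 and lower for Nova1. Between the NPC libraries, Nova2 differed 1.09-fold and Nova1 1.10-fold, both higher in replicate 2. These gaps exceeded those of 90.3% of genes of like level for Nova2 (median 1.03-fold) and 79.5% for Nova1 (median 1.05-fold). The base composition of the paralogs differs, with 56.3% GC in the Nova2 transcript and 38.5% in the Nova1 transcript, and the neuron libraries differed slightly by GC. Neuron replicate 2 over replicate 1 had a median log2 ratio of 0.02 over the 709 genes of like GC to Nova2, whose own ratio was 0.31. It had a median of -0.03 over the 297 genes of like GC to Nova1, whose own ratio was -0.25. Set against the neuron-over-NPC median of the same genes of like GC, the changes were 0.94 for Nova2 and -0.94 for Nova1.

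Markers checked the sort. All 11 pan-neuronal markers were higher in neurons, with summed levels of 9350 and 9600 CPM in neurons and 2350 and 2390 CPM in NPCs. All 12 radial glia markers were lower, at 714 and 731 CPM in neurons and 3620 and 3610 CPM in NPCs. Nes, whose sequences drive the green reporter, was at 33.1 and 36.4 CPM in neurons and 103 and 97.8 CPM in NPCs. Dcx, which encodes doublecortin, was at 1360 and 1440 CPM in neurons and 468 and 493 CPM in NPCs, so that the NPC libraries also held Dcx RNA. Its part in the NPC levels of the Nova genes was not tested. All 6 intermediate progenitor markers were lower as well, at 559 and 531 CPM in neurons and 2810 and 2780 CPM in NPCs. Markers of other cell types moved with the groups too. All 5 oligodendrocyte precursor markers were lower in neurons, with sums of 2.85 and 3.58 CPM in neurons and 170 and 178 CPM in NPCs, and all 7 endothelial markers had sums of 6.16 and 6.51 CPM in neurons and 180 and 182 CPM in NPCs. All 5 pericyte markers were lower too, at 5.59 and 5.68 CPM in neurons and 143 and 148 CPM in NPCs, as were the 7 microglia markers, at 18.8 and 18.3 CPM in neurons and 41.4 and 41.1 CPM in NPCs. Erythroid markers summed to 61.8 and 63.9 CPM in neurons and 382 and 360 CPM in NPCs. These lists, like those of the progenitors, fell in neurons as Nova1 did, and their part in its change was not tested. Of 5 Cajal-Retzius markers 4 were higher and Ebf3 was lower (-0.72 ± 0.17, edgeR adjusted p = 0.0012), with sums of 161 and 165 CPM in neurons and 43.9 and 43.7 CPM in NPCs that were mostly Reln. For 5 of 6 deep-layer markers the level was higher, and deep-layer markers had 1460 and 1560 CPM in neurons and 485 and 500 CPM in NPCs. Upper-layer markers had 1390 and 1420 CPM in neurons and 844 and 848 CPM in NPCs. Interneuron markers went both ways, with Npy, Sst, Gad1 and Gad2 higher and Dlx1 and Dlx2 lower among 8, and had sums of 194 and 206 CPM in neurons and 190 and 184 CPM in NPCs. No marker in these lists was at 0 in every library.

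Transcripts reported as spliced by NOVA proteins in the mouse brain were followed as a list of 18 genes, written with earlier results of these data known. In this list 14 genes rose in neurons (77.8%, against 35.8% of all genes tested) and 2 fell (11.1%, against 36.9%). The median log2 change was 0.76, against -0.02 for all genes. The table gives their total expression, not the use of the exons that NOVA proteins control.

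Receptor, channel and signalling genes were among those with high changes. Dab1, which encodes the adaptor of Reelin signalling in migrating neurons, was at 528 and 555 CPM in neurons and 132 and 133 CPM in NPCs (2.03 ± 0.06 on the log2 scale, edgeR adjusted p = 9.4e-15). The glycine receptor subunit gene Glra2 (2.11 ± 0.08) and the N-type calcium channel gene Cacna1b (2.08 ± 0.17) also rose, with edgeR adjusted p-values of 6.2e-13 and 1.0e-08. Cacna1b was a low gene, at 6.94 and 9.32 CPM in neurons and 1.75 and 2.08 CPM in NPCs.

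The axon guidance receptor genes of the list rose by varying amounts, while Slit2, which encodes a Slit protein, did not pass. Robo2, a receptor for Slit proteins, was at 433 and 444 CPM in neurons and 126 and 140 CPM in NPCs (1.72 ± 0.06, edgeR adjusted p = 1.4e-13). The netrin receptor gene Dcc was at 237 and 245 CPM in neurons and 145 and 153 CPM in NPCs (0.69 ± 0.05, edgeR adjusted p = 5.3e-09). Neo1, which encodes the related receptor neogenin, had a log2 change of 0.86 ± 0.05, and Epha5, an ephrin receptor gene and the member with the most counts, had one of 0.82 ± 0.05 (edgeR adjusted p-values of 2.1e-10 and 6.4e-10). Gphn, which encodes the inhibitory synapse scaffold gephyrin, had one of 0.66 ± 0.06 (edgeR adjusted p = 7.2e-08).

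The members that fell were Aplp2 and Agrn. Aplp2, a gene of the amyloid precursor protein family, was at 106 and 113 CPM in neurons and 166 and 161 CPM in NPCs (-0.58 ± 0.06, edgeR adjusted p = 5.9e-08). Agrn, which encodes agrin, the organiser of the neuromuscular synapse and also a basement membrane protein of blood vessels, was at 117 and 120 CPM in neurons and 149 and 151 CPM in NPCs (-0.34 ± 0.05, edgeR adjusted p = 2.0e-05). Endothelial and pericyte marker sums were also lower in neurons, and their part in the fall of Agrn was not tested. Slit2 and Epb4.1 did not pass, with log2 changes of -0.16 ± 0.08 and 0.09 ± 0.05 (edgeR adjusted p = 0.077 and 0.12).

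Other genes of KH-domain proteins did not share one direction. Of 32 tested, 10 rose in neurons (31.2%, against 35.8% of all genes tested), 15 fell (46.9%, against 36.9%) and 7 did not pass, with a median log2 change of -0.07. When libraries were scaled by their size alone, the median change of all genes was -0.23, and 5 KH-domain genes rose and 19 fell. Khdrbs2, which encodes the splicing regulator SLM1, was at 96.4 and 97.4 CPM in neurons and 17.3 and 17.1 CPM in NPCs (2.50 ± 0.06, edgeR adjusted p = 4.2e-15). Khdrbs3, its paralog, had a log2 change of 1.07 ± 0.06, and Akap1, which encodes a mitochondrial anchoring protein, had one of 0.73 ± 0.07 (edgeR adjusted p-values of 2.1e-11 and 4.1e-08). Among those that fell, Qk, which encodes quaking, was at 234 and 243 CPM in neurons and 756 and 789 CPM in NPCs (-1.69 ± 0.06, edgeR adjusted p = 7.9e-14). Igf2bp1, an mRNA-binding protein gene of fetal tissues, had a log2 change of -1.06 ± 0.07 (edgeR adjusted p = 2.4e-10). Bicc1 had one of -3.06 ± 0.32 at very low levels, 0.184 and 0.523 CPM in neurons and 2.66 and 3.32 CPM in NPCs (edgeR adjusted p = 2.3e-07). Hnrnpk, the member with the most counts, did not pass at 2620 and 2360 CPM in neurons and 2310 and 2330 CPM in NPCs (edgeR adjusted p = 0.15), and it passed without neuron replicate 2, at 0.19.

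Neuronal splicing regulators other than the Nova genes rose for 15 of 24 (62.5%, against 35.8% of all genes tested), fell for 7 (29.2%, against 36.9%) and did not pass for 2, with a median of 0.39. The Khdrbs genes and Qk belong to this list as well as to the KH-domain list. Nova2 lay within the range of the risers, whose highest was Rbfox1, at 240 and 238 CPM in neurons and 24.4 and 25.3 CPM in NPCs (3.27 ± 0.06, edgeR adjusted p = 3.2e-16). Khdrbs2 and Celf6 (2.33 ± 0.12, edgeR adjusted p = 3.4e-11) came next, and the member with the most counts, Celf2, had a change of 1.04 ± 0.05 (edgeR adjusted p = 2.4e-11). Nova1 lay within the range of those that fell, whose lowest were Mbnl3 (-2.25 ± 0.15), Qk and the exon repressor gene Ptbp1 (-1.50 ± 0.06), with edgeR adjusted p-values of 5.0e-10 for Mbnl3 and 7.1e-13 for Ptbp1.

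**Figure D3:**
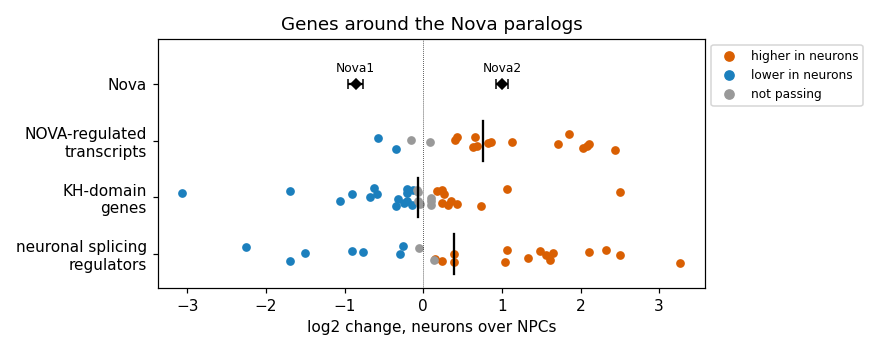
log2 change, neurons over NPCs, of each gene of the lists described in the text, coloured by its call; vertical bars are list medians (0.76, -0.07 and 0.39), and diamonds are Nova1 and Nova2 with their standard errors. Nova1 at -0.86 and Nova2 at 1.00 lie on either side of 0, within the range of the other splicing regulators.

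How often related RNA-binding protein genes were called in opposite directions was counted over 14 families with at least 2 tested members, without the Nova genes. Calls in both directions were present in 3 families, only rises in 5 and only falls in 5. Of all genes tested, 35.8% were called higher in neurons and 36.9% lower. Unrelated genes would thus often be called in opposite directions too, and the count was not compared with sets of such genes. The 3 families were Ptbp, Elavl and Pcbp, and this number was between 2 and 4 over 12 other ways of processing the data. In the Elavl family, Elavl3 was higher in neurons (1.33 ± 0.05) and the widely expressed Elavl1 lower (-0.31 ± 0.06) (edgeR adjusted p-values of 8.1e-13 and 1.2e-04). Elavl4 was lower too (-0.29 ± 0.05, edgeR adjusted p = 1.4e-04), and Elavl2 did not pass (-0.05 ± 0.05, edgeR adjusted p = 0.44). In the Pcbp family of KH-domain proteins the changes were smaller, at 0.43 ± 0.08 for Pcbp3 and -0.25 ± 0.06 for Pcbp1 (edgeR adjusted p-values of 1.3e-04 and 0.0014). In the Ptbp family, Ptbp1 and Rod1 (now Ptbp3) fell, the latter by -0.91 ± 0.07 (edgeR adjusted p = 5.1e-09). Ptbp2 rose (0.15 ± 0.05, edgeR adjusted p = 0.021). With each library left out in turn, the change of Ptbp2 was between 0.13 and 0.18. It was called without either neuron library and not called without either NPC library. When libraries were scaled by size alone, the Ptbp2 change was -0.06. All tested genes of the Celf, Khdrbs, and Srrm3 and Srrm4 families rose. All of the Mbnl, Msi, and Fmr1 and Fxr families fell.

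**Figure D4:**
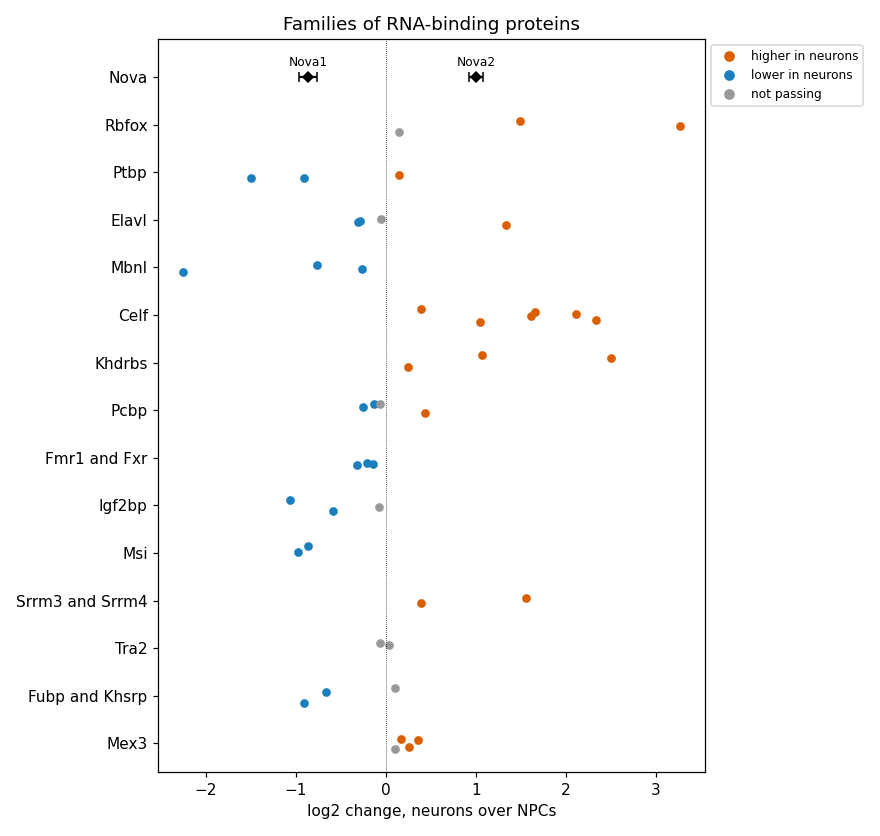
log2 change, neurons over NPCs, of each tested member of 14 families of RNA-binding proteins, coloured by its call, with Nova1 and Nova2 and their standard errors at the top. Ptbp, Elavl and Pcbp have members called in both directions; the opposite changes of Nova1 (-0.86) and Nova2 (1.00) are a description, since these chose the genes.

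The genes most like each paralog were found as those with the smallest root mean square distance between centred log2 CPM values over the 4 libraries, among the 7957 genes averaging 20 CPM or more. For Nova2 the nearest was Rhob, a small GTPase gene, at a distance of 0.0057 and with 34.0 and 42.4 CPM in neurons and 18.2 and 19.6 CPM in NPCs. Atxn7l3 and Trim32 followed, at distances of 0.0275 and 0.0383. For Nova1 the nearest were 1190002N15Rik, Fam199x and Baz1a, at distances of 0.0262, 0.0378 and 0.0405, and Baz1a, a chromatin remodelling gene, was at 47.8 and 42.0 CPM in neurons and 79.8 and 82.4 CPM in NPCs. With 4 libraries, such likeness holds the difference between groups and the spread within each pair, and no more.

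The opposite changes of the paralogs kept their signs under each of 13 other ways of processing the data. These signs in the same libraries chose the genes, so keeping them is no separate support. With groups that did not overlap, leaving out a library could hardly turn a sign. The log2 change of Nova2 was between 0.79 and 1.15, and that of Nova1 between -1.06 and -0.72.

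**Figure D5:**
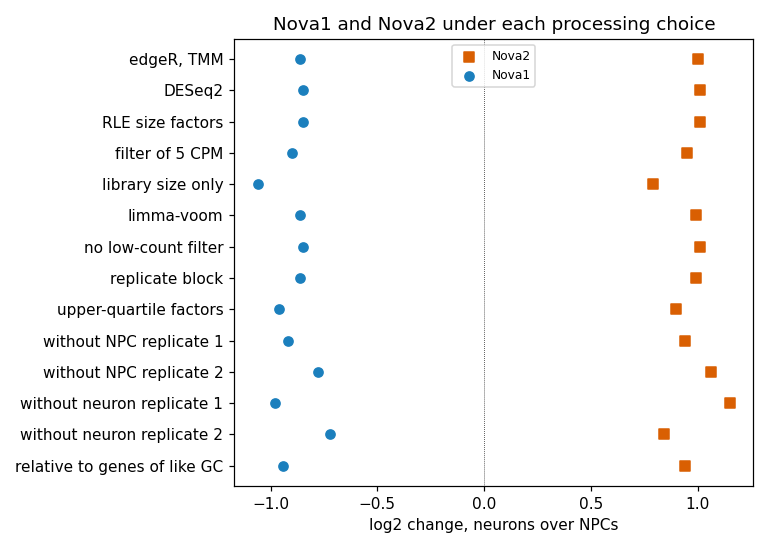
log2 change, neurons over NPCs, of Nova1 (circles) and Nova2 (squares) in the edgeR fit with TMM factors (top) and under each of 13 alternatives. All Nova2 values lie between 0.79 and 1.15 and all Nova1 values between -1.06 and -0.72, with the values farthest from 0 for Nova1 and nearest to 0 for Nova2 when libraries were scaled by size alone.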

How the data were processed

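RNA-seq gene counts of 4 libraries were analysed, 2 of sorted neurons and 2 of sorted NPCs, grouped by their titles. The authors deposited 1 table of estimated counts, with totals of 52611828 and 55329294 in neurons and 53533953 and 55615142 in NPCs. The submitters' processing notes name SAMtools 0.1.18, TopHat 1.2.0, CASAVA 1.9 and the build mm9 without their roles. For the counter, the gene models and the use of strand, nothing is given in the sources used here.

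Counts were rounded, filtered with filterByExpr (15292 genes kept) and scaled with TMM factors. Neurons were compared with NPCs by the two-sided quasi-likelihood test of edgeR 4.0.16 in R 4.3.3, with Benjamini-Hochberg adjustment over all genes tested and a threshold of 0.05. The test was checked on simulated counts. At this threshold 11108 genes (72.6%) were called. Each standard error was the size of the log2 change over the square root of the F statistic. Nova1 and Nova2 were not tested. Log2 ratios between libraries used a pseudocount of 0.5 CPM. GC content came from the longest transcript, found for 89.8% of genes, with like GC meaning within 1 percentage point at a mean of at least 10 CPM. Transcripts were aligned with Biopython 1.88. The members and lists were chosen with earlier results of these data known. Named genes were the 3 highest and 3 lowest called members and the member of each list with the most counts, 6 well-known NOVA-regulated transcripts, Nes and Dcx, the extremes of families called both ways, the nearest patterns and the neighbouring genes. One gene named by this rule is not reported here. Slit2 and Epb4.1, which did not pass, were added after their values were seen, as were Elavl2, Elavl4 and Rod1. Alternatives were other scalings, filters and tests (DESeq2 1.42.0, limma 3.58.1), leaving out each library, and a replicate block. Coding length and the comparison with genes of like GC were chosen after seeing the data. The union of exons was added after its values were seen.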

Additional observations from a re-analysis of the deposited data

How the results depend on the processing

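The Nova1 and Nova2 changes kept their direction under every alternative run, which is no separate support, since this direction chose the genes. In 162 comparisons of a main result with an alternative, a count stayed within 1.5-fold, a share of calls within 10 percentage points, a Nova change within 1 SD between replicates, or a ratio of the paralogs within the bounds set for it. The ratios say little here. Rounding of counts could hardly move them, and coding length changed the ratios per kilobase by the same factor in every library. The 4 that moved further did so when libraries were scaled by size alone, where the median log2 change of all genes was -0.23, against -0.02 with TMM factors and -0.12 with upper-quartile factors. Under it the Nova1 change was -1.06, the Nova2 change was 0.79, 33.5% of calls were higher in neurons (3840 against 7610 genes) in place of 49.2%, and 5 KH-domain genes rose in place of 10. Among named genes, the log2 change of Ptbp2 turned to -0.06 under it, and it was not called with upper-quartile factors (0.05, edgeR adjusted p = 0.45) or a filter of 5 CPM (0.10, edgeR adjusted p = 0.09). With each library left out in turn, its change was between 0.13 and 0.18. It was called without either neuron library and not called without either NPC library. Such fits leave a group without a duplicate, so their calls rest on the spread of the other group. Of the alternatives run, only leaving out neuron replicate 2 called Hnrnpk, at 0.19 (edgeR adjusted p = 1.3e-08). The cause was not tested. Leaving out each library in turn gave 9773 to 11252 calls, -0.98 to -0.72 for Nova1 and 0.84 to 1.15 for Nova2. The duplicate numbers are not stated to pair libraries, and deviations of libraries with equal numbers correlated at 0.074 over 7957 genes. With the replicate block 11206 genes were called, against 11108 without it, and the Nova1 and Nova2 changes were -0.86 and 0.99. Nova1 had 558 to 1343 counts per library.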

Other observations

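Genes next to the Nova genes were looked up by order in the reference. Gm38952, a long noncoding RNA gene, overlaps Nova2 there and has no row among the deposited counts. Its relation to Gm26821 was not examined. Ccdc61, the nearest gene before Nova2, was at 12.6 and 10.6 CPM in neurons and 19.3 and 20.6 CPM in NPCs, the direction opposite to Nova2 (log2 change -0.79 ± 0.10, edgeR adjusted p = 1.6e-06). Nanos2, the nearest after it, was a low gene that rose as Nova2 did, at 1.19 and 0.93 CPM in neurons and 0.434 and 0.251 CPM in NPCs (1.62 ± 0.36, edgeR adjusted p = 0.00078). The neighbours of Nova1 in that reference were pseudogenes and were not analysed here.

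The NOVA motif YCAY was counted, with TCAT and also TCAC and also CCAT and also CCAC as its forms in DNA letters, on the transcript strand of the paralogs' own longest transcripts, with overlapping matches included. There were 176 matches in Nova2 (21.0 per kilobase) and 130 in Nova1 (18.2 per kilobase). Among the longest transcripts of 3680 protein-coding genes with at least 5000 bases, whose median was 17.0 per kilobase, Nova2 lay above 91.0% and Nova1 above 66.1%. A match is only these letters and depends on base composition.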
